A study of Homo sapiens with 9 samples.

Results

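The CCND1 locus was defined as a window of 450 kb on chromosome 11 (hg19) that reaches from 405.9 kb upstream to 44.1 kb downstream of the annotated CCND1 start at 69455873. Its members were all peaks whose summit lies in that window, in any of the 5 deposited peak lists. There were 51 such peaks among 60345 in all lists. The lists come from chromatin immunoprecipitation sequencing (ChIP-seq) of the 786-O cell line, which was established from a human clear cell renal carcinoma. They hold TEAD peaks from cells treated with XMU-MP-1, and p65 peaks from 4 conditions: siTEAD4, control, XMU-MP-1 and vehicle. XMU-MP-1 inhibits MST1 and MST2, the Hippo kinases upstream of YAP. The siTEAD4 name is in a sample title, whereas the treatment field of that sample reads siTEAD, and its peak identifiers carry the name p65_Vert, so this list is called labelled siTEAD4. The sources used here do not name the TEAD protein that the antibody recognises, the siRNA of the control cells or the doses. With 1 library per condition, differences between lists are described without any p-value. All values below come from a single cell line.

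CCND1 encodes cyclin D1, which binds CDK4 and CDK6 and drives the phosphorylation of RB in G1. In clear cell renal carcinoma, VHL is commonly lost, HIF-2 accumulates, and CCND1 is among the genes it induces through distal DNA upstream of the gene. 786-O cells lack functional VHL and express HIF-2. p65, the RELA subunit of NF-κB, is a DNA-binding transcription factor of inflammatory and survival signalling. TEAD proteins bind DNA and recruit YAP and TAZ, the co-activators that the Hippo kinases restrain. HIF-2 itself was not profiled in these libraries. In RefSeq order, MYEOV is the next protein-coding gene on the upstream side of CCND1, and LTO1 and FGF19 are among those that follow it downstream.

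The TEAD list had 16 peaks in the window. The p65 lists had 3 peaks in the one labelled siTEAD4, against 15 in the control list, and 4 in the XMU-MP-1 list, against 13 in the vehicle list. Peaks of any list that overlapped were joined into 24 sites. Of these, 8 sites held both TEAD and p65 peaks, 8 held TEAD alone and 8 held p65 alone. This split sets TEAD of XMU-MP-1 cells against p65 of all conditions, so a shared site need not be bound by both in the same cells. Of the 24 sites, 2 were called in all 5 lists, 2 in 4 lists and 3 in 3 lists. A further 6 were called in 2 lists and 11 in 1 list. These counts of sites were not made over the whole series. In the whole lists a TEAD peak lay at 47.4% of control and 45.6% of vehicle p65 peaks. Of the 51 peaks, 46 had their summit upstream of the CCND1 start and 5 downstream of it. The window itself reaches 405.9 kb upstream and 44.1 kb downstream, so evenly spaced peaks would also lie mostly upstream. No peak of any list covered the start itself.

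**Figure D1:**
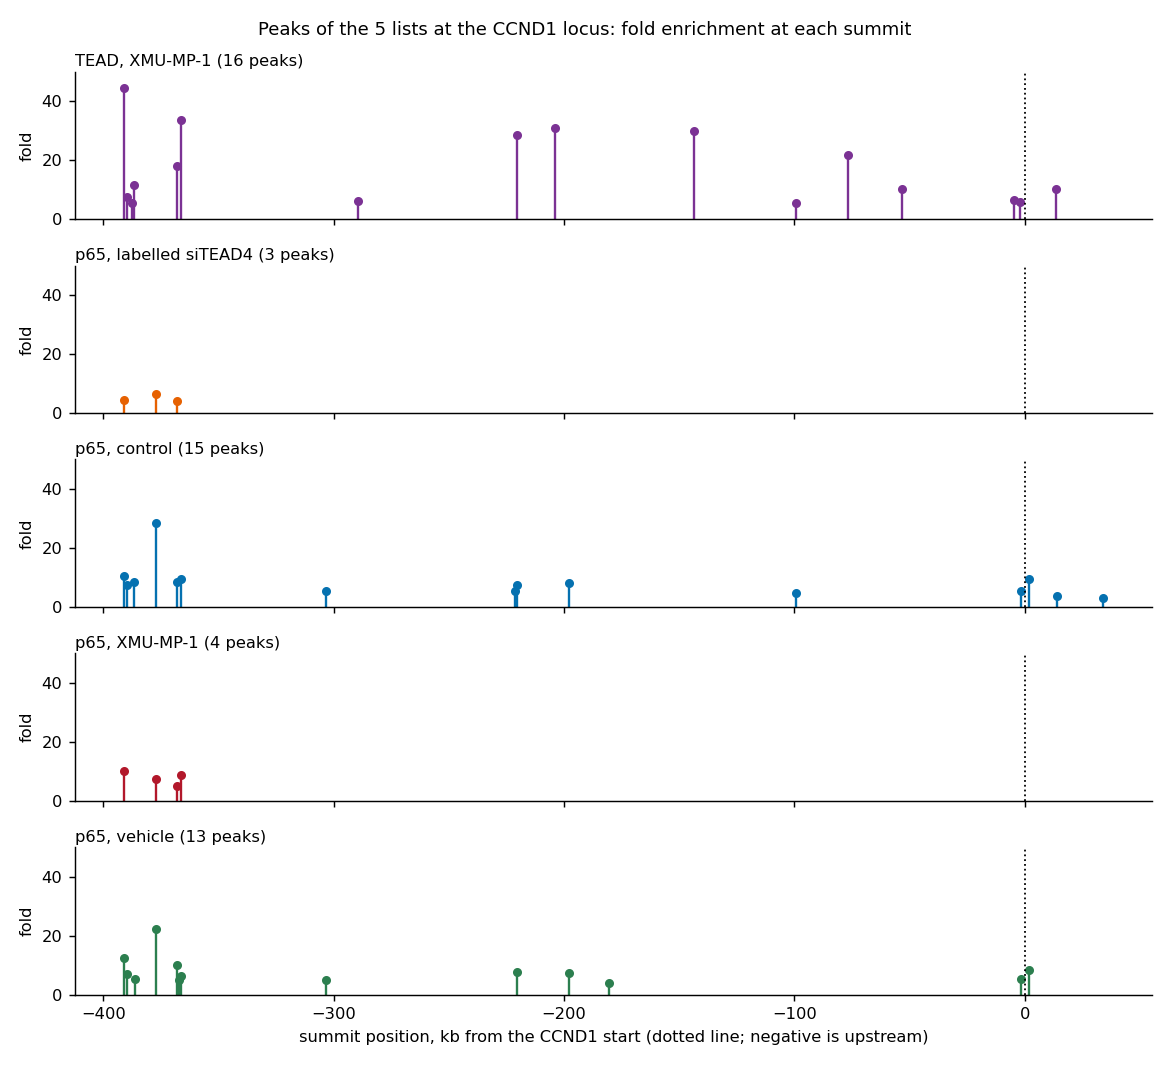
Fold enrichment at the summit (vertical axis, each fold set against that library's background) against the distance of the summit from the CCND1 start in kb, with 1 panel per list and 1 point per peak. All 7 p65 peaks of the XMU-MP-1 list and the one labelled siTEAD4 lie more than 366 kb upstream, whereas TEAD, control and vehicle peaks are spread over the window.

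The window was denser in peaks than the lists as a whole. It held 35.6 TEAD peaks per Mb, against 7.59 per Mb over all chromosomes, each taken up to the last position that a list reaches. The p65 densities were 6.67 per Mb in the list labelled siTEAD4 and 33.3 in the control list, against 0.586 and 5.00 per Mb over all chromosomes in the same lists. For XMU-MP-1 and vehicle p65 they were 8.89 and 28.9 per Mb, against 0.533 and 5.81 over all chromosomes. The dense side of the window is the upstream end. When sites up to 12.5 kb apart were chained, a distance chosen after seeing the data, the first of 12 groups spanned 25.2 kb, between 391 and 366 kb upstream of the CCND1 start, and held 8 sites and 26 of the 51 peaks. The group around the gene spanned 18.8 kb, from 4.53 kb upstream to 14.2 kb downstream of the start, and held 5 sites and 8 peaks. A stretch of 62.4 kb without any peak follows the upstream group. Positions are given from the CCND1 start only. The distance of the upstream group from MYEOV was not measured, and which gene its sites act on was not tested.

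The strongest TEAD peak of the locus was in this upstream group. It extended over 1022 bp from 69064566 to 69065587, with its summit 390.9 kb upstream of the CCND1 start. The authors' fold for it, taken as the summit pileup plus 1 over the local background plus 1, was 44.6, which ranked 59 of the 23460 TEAD peaks, and the pileup at its summit was 112 fragments over a local background of 1.53, both solved from the deposited fold and −log10 p. All 4 p65 lists had a peak at this site. The folds were 4.55 in the list labelled siTEAD4, against 10.4 in the control list, and 10.1 in the XMU-MP-1 list, against 12.3 in the vehicle list. Behind these folds stood 32 fragments over a background of 6.26 in the list labelled siTEAD4 and 72 fragments, scaled to a pileup of 42.2 over a background of 3.14, in the control list. The XMU-MP-1 peak there had 44 fragments, scaled to a pileup of 34.5 over a background of 2.53, and the vehicle peak had 45 fragments over a background of 2.72. The p65 summits lay between 36 and 102 bp from the TEAD summit. Folds are relative to the background of each library, so a lower fold is not by itself a measure of less p65 on DNA.

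The site called in all 5 lists that came next lay from 69087734 to 69088246, 367.9 kb upstream of the gene start by its control summit. Its TEAD fold was 18.1, with 47 fragments at the summit. The p65 folds were 4.28 in the list labelled siTEAD4, against 8.45 in the control list, and 5.05 in the XMU-MP-1 list, against 10.02 in the vehicle list. At this site the labelled siTEAD4 summit was 7 bp from the control summit, and the XMU-MP-1 summit was 48 bp from the vehicle summit. The 2 treated lists were thus called at the same DNA as their references, with lower folds. The peak labelled siTEAD4 had 22 fragments over a background of 4.38, and the control peak 50, scaled to a pileup of 29.3 over 2.59. The XMU-MP-1 peak had 31 fragments, scaled to a pileup of 24.3 over a background of 4.0, and the vehicle peak 25 over 1.60. Both treated peaks thus had higher backgrounds than their references, and the XMU-MP-1 and vehicle pileups were close to each other.

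The strongest p65 site of the locus had no TEAD peak. It lay from 69078585 to 69079136, 377.03 kb upstream of the start by both reference summits. The p65 folds there were 6.54 in the list labelled siTEAD4, against 28.6 in the control list, and 7.55 in the XMU-MP-1 list, against 22.3 in the vehicle list. The control peak, with 137 fragments scaled to a pileup of 80.4, ranked 57 of 15465. The vehicle peak, with 67 fragments and no scaling, ranked 273 of 17958. In the list labelled siTEAD4 this was the strongest p65 peak of the locus, at rank 569 of 1813, and the XMU-MP-1 peak ranked 466 of 1649. The site with the highest p65 fold in both reference lists was therefore called in all 4 p65 lists without TEAD, 31.4% of the way down the list labelled siTEAD4 and 28.3% down the XMU-MP-1 list.

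**Figure D2:**
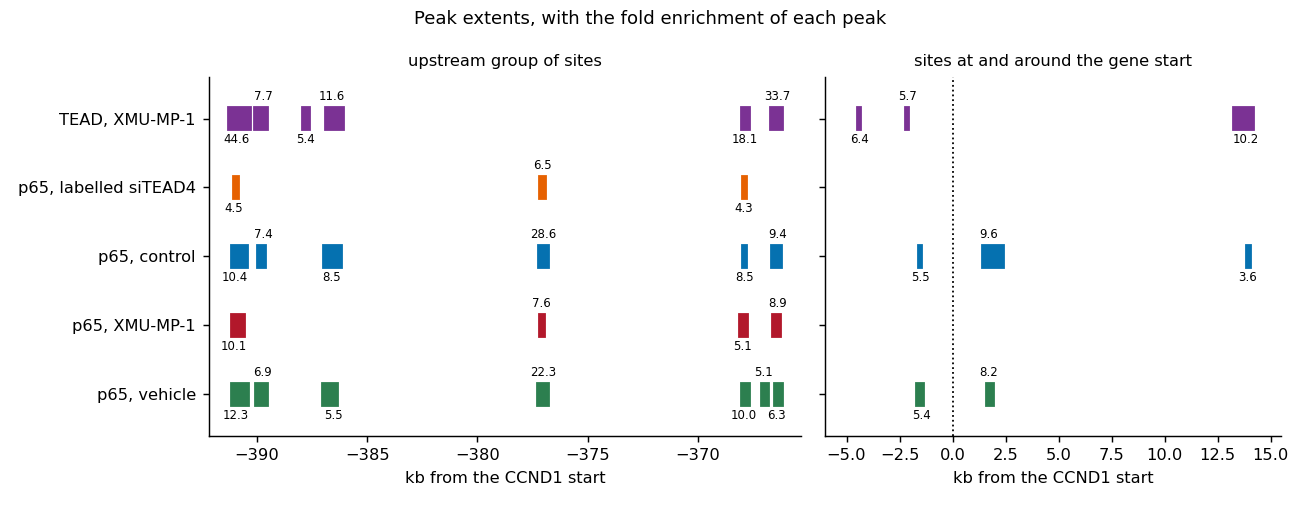
Extent of each peak (bar, in kb from the CCND1 start) in the 5 lists, with its fold printed beside it, for the upstream group (left) and for the sites around the gene start (right; dotted line, start). The p65 peaks of the XMU-MP-1 list and of the list labelled siTEAD4 are confined to the left panel, where they coincide with control and vehicle peaks.

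A site from 69089145 to 69089727 separated the treated lists. It had the TEAD peak with the next highest fold of the locus, 33.7 with 71 fragments at the summit, 366.4 kb upstream of the CCND1 start. It had no peak in the list labelled siTEAD4, against a fold of 9.39 in the control list. In the XMU-MP-1 list the fold was 8.91, against 6.29 in the vehicle list. This was the 1 site of the window where the XMU-MP-1 fold was above the vehicle fold, and it ranked 282 of 1649 for XMU-MP-1 and 7760 of 17958 for vehicle. The XMU-MP-1 peak rested on 32 fragments, scaled to a pileup of 25.1 over a background of 1.93. The vehicle peak rested on 22 fragments, without scaling, over a background of 2.66. The p65 summits of the XMU-MP-1, control and vehicle lists were 26, 27 and 9 bp from the TEAD summit.

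The other sites of the upstream group were called in neither treated p65 list. At the site from 69065738 to 69066362, which begins just beyond the strongest TEAD peak, the TEAD fold was 7.66, the control p65 fold 7.42 and the vehicle p65 fold 6.92. At the site from 69068839 to 69069799 the TEAD fold was 11.6, the control fold 8.54 and the vehicle fold 5.47. Both had p65 and TEAD summits within 94 bp of each other. A weak TEAD peak (fold 5.39) at 387.8 kb upstream had no p65 peak, and a vehicle peak (fold 5.08) at 367.01 kb upstream had no peak in another list.

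Nearer to the gene, the longest TEAD peak of the window extended over 1465 bp from 69234342 to 69235806, with its summit 220.4 kb upstream of the CCND1 start. Its fold was 28.7, on 117 fragments over a background of 3.12, the highest fragment count of the locus in the TEAD list. It held 2 control p65 peaks, with folds of 5.46 and 7.53, and 1 vehicle p65 peak with a fold of 7.65. The stronger control summit and the vehicle summit were 40 and 60 bp from the TEAD summit. Neither treated p65 list had a peak there. The vehicle fold was above the 6.29 of the weakest vehicle peak that the XMU-MP-1 list shared, and the control fold was below the 8.45 of the weakest control peak that the list labelled siTEAD4 shared. In clear cell renal carcinoma a HIF-2 bound enhancer upstream of CCND1 has been described; whether it coincides with this peak was not tested.

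Between this peak and the CCND1 start lay 6 of the 8 TEAD sites without p65. The strongest, from 69251785 to 69252330, had a TEAD fold of 30.96 with 77 fragments at the summit, 203.9 kb upstream of the start. The next, from 69311765 to 69312429, had a fold of 29.8 on 61 fragments, 143.7 kb upstream. The third, from 69379060 to 69379540, had a fold of 21.8 on 54 fragments, 76.6 kb upstream. These peaks ranked 337, 384 and 926 of 23460, and the nearest p65 summits of any list were 6.13, 36.7 and 22.6 kb away. The other TEAD peaks without p65 had folds of 5.39 to 10.1. Over the 8 TEAD sites without p65 the median TEAD fold was 8.23 (range 5.39 to 30.96), and over the 8 with p65 it was 14.8 (5.61 to 44.6), so the ranges overlapped over most of their length.

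The p65 sites without TEAD were, apart from the strong site in the upstream group, moderate or weak and absent from both treated lists. The site from 69257898 to 69258343, 197.7 kb upstream of the start, had a control fold of 8.17 and a vehicle fold of 7.29. The site from 69152126 to 69152480, 303.5 kb upstream, had a control fold of 5.41 and a vehicle fold of 5.09. A vehicle peak 180.4 kb upstream (fold 4.16) had no counterpart in another list. At 99.1 kb upstream a control peak (fold 4.62) coincided with a weak TEAD peak (fold 5.61), with 13 bp between the summits, and had no vehicle peak.

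Within 4.53 kb of the gene start on either side, p65 and TEAD were called beside each other rather than at the same site. TEAD peaks had folds of 6.35 at 4.40 kb and 5.71 at 2.12 kb upstream of the start. A p65 site 1.53 kb upstream by its control summit had a control fold of 5.55 and a vehicle fold of 5.39. Downstream of the start by 1.70 kb, a p65 peak of 1062 bp in the control list, from 69457241 to 69458302, had a fold of 9.64 with 43 fragments. These were scaled to a pileup of 25.2. The vehicle peak there, from 69457462 to 69457846, had a fold of 8.24 with 20 fragments, without scaling. Neither of these p65 sites had a TEAD peak or a peak in a treated p65 list. At 13.8 kb downstream of the start a TEAD peak of 1011 bp (fold 10.2) overlapped a control p65 peak with a fold of 3.60, on a background of 4.0 that was the highest of the control peaks in the window. The weakest control peak (fold 3.18, −log10 q of 1.42), 34.3 kb downstream, had no counterpart in another list.

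The first comparison asks how p65 sites at the locus differ in cells labelled siTEAD4 from those in control cells. Of the 15 control peaks, 3 (20%, exact 95% interval 4.33 to 48.1) had a peak labelled siTEAD4, and 12 had none. Over the whole control list the share was 11.2%, and on chromosome 11 it was 13.7%. Both lie within the interval of the locus, which treats neighbouring peaks as independent. All 3 kept peaks lie in the upstream group of 25.2 kb and are not independent. With the vehicle list in place of the control list, 3 of 13 peaks had a peak labelled siTEAD4, against 9.77% of the whole vehicle list. The kept control peaks had folds of 8.45, 10.4 and 28.6. Those without a peak labelled siTEAD4 had folds of 3.18 to 9.64 (median 6.48), so the groups overlapped: the control peaks 1.70 kb downstream of the CCND1 start (9.64), at the TEAD site 366.4 kb upstream (9.39) and 386.6 kb upstream (8.54) were stronger than the weakest kept one. In the whole control list the share kept was 57.5% in the strongest 10% by fold, 22.1% in the next 10% and 11.8% in the 10% after that. At the locus it was 1 of 1, 1 of 3 and 1 of 3 peaks in the same classes, and none of the 8 weaker control peaks was kept.

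The second comparison asks how p65 sites differ in XMU-MP-1 cells from those in vehicle cells. Of the 13 vehicle peaks, 4 (30.8%, 9.09 to 61.4) had an XMU-MP-1 peak, against 8.77% of the whole vehicle list and 10.2% of its peaks on chromosome 11. The lower bound of the interval, which covers the counting of peaks only and treats neighbouring peaks as independent, is just above the share of the whole list and below that of chromosome 11. All 4 kept peaks lie within 25.2 kb of each other and are not independent. Their vehicle folds were 6.29, 10.02, 12.3 and 22.3, against 4.16 to 8.24 (median 5.47) at the 9 vehicle peaks without an XMU-MP-1 peak. In the whole vehicle list the share kept was 46.6% in the strongest 10% by fold, 16.4% in the next 10% and 9.18% in the 10% after that. At the locus it was 1 of 1, 2 of 2 and 0 of 2 vehicle peaks in the same classes, and 1 of the 8 weaker ones was kept. The XMU-MP-1 and siTEAD4-labelled lists were both called at 3 of the 4 sites. No site of the locus had a treated p65 peak without a control and a vehicle peak. Neither count was made over all treated peaks. In the whole lists 1737 control peaks overlapped the list of 1813 peaks labelled siTEAD4. Likewise, 1575 vehicle peaks overlapped the list of 1649 XMU-MP-1 peaks, so such overlap was common throughout the series.

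**Figure D3:**
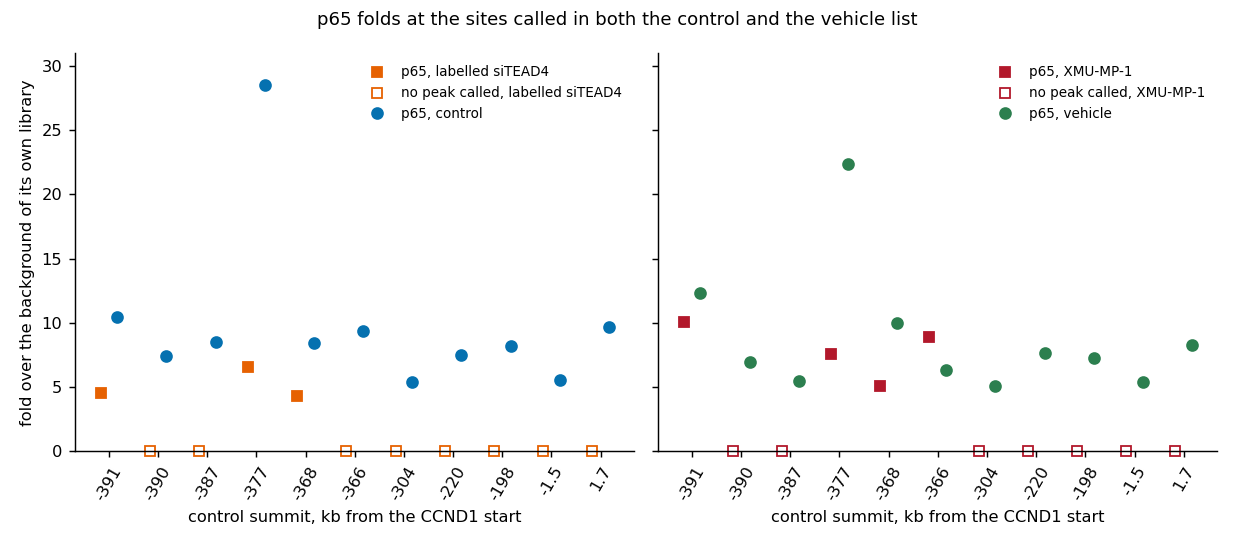
p65 fold enrichment over the library's local background at the 11 sites called in both the control and the vehicle list, ordered by distance from the CCND1 start in kb, for the list labelled siTEAD4 beside the control list (left) and the XMU-MP-1 list beside the vehicle list (right). Filled squares are called treated peaks, open squares on the zero line mark sites with no called peak (not a measured fold of 0), and circles are the reference peaks; 3 sites have a filled square on the left and 4 on the right.

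The control and vehicle lists, which serve as references, differed at the locus mainly in their weak peaks. Of the control peaks 11 of 15 (73.3%, 44.9 to 92.2) had a vehicle peak, against 79.5% in the whole control list. Of the vehicle peaks 11 of 13 had a control peak, against 68.5% in the whole vehicle list. The 6 unmatched peaks had folds of 3.18 to 5.46. At the matched sites the ratio of control to vehicle fold lay between 0.843, at the site 367.9 kb upstream, and 1.56, at the site 386.6 kb upstream. Of the 11 sites called in both lists, 7 had no peak in either treated list, and 3 of these 7 had a TEAD peak. The same counts over the whole series were not made. Across all chromosomes, 11.2% of the control list overlapped the siTEAD4-labelled list, and 8.77% of the vehicle list overlapped the XMU-MP-1 list. Reference peaks without a treated counterpart were therefore common throughout and are not particular to this locus.

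The third comparison asks where p65 and TEAD coincide. TEAD was profiled in XMU-MP-1 cells only, so just the XMU-MP-1 p65 list shares its treatment. The other overlaps set lists of different treatments against each other. A TEAD peak lay at 2 of the 3 peaks labelled siTEAD4, against 71.6% of that whole list, and at 3 of the 4 XMU-MP-1 peaks, against 75.2%. It lay at 9 of the 15 control peaks (60%, 32.3 to 83.7), against 47.4%, and at 6 of the 13 vehicle peaks (46.2%, 19.2 to 74.9), against 45.6%. Conversely, a p65 peak labelled siTEAD4 lay at 2 of the 16 TEAD peaks (12.5%, 1.55 to 38.3), against 5.50% of the whole TEAD list, and a control p65 peak at 8 (50%, 24.7 to 75.3), against 30.9%. An XMU-MP-1 p65 peak lay at 3 of them (18.8%, 4.05 to 45.6), against 5.26%, and a vehicle p65 peak at 6 (37.5%, 15.2 to 64.6), against 34.5%. The share of the whole list was inside the interval of the locus in each of these counts.

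By median rank, TEAD peaks of the locus stood higher in their list than p65 peaks did in theirs, though close to XMU-MP-1 p65. The median lay 18.7% of the way down the list for TEAD and 22.7% for the 4 XMU-MP-1 p65 peaks. It lay at 30.4% for control, 35.8% for vehicle and 71.1% for the 3 peaks labelled siTEAD4. The median TEAD fold was 10.9 in the window, against 6.27 in the whole list, and 7 of the 16 peaks were in the strongest 10%. Of the p65 peaks, 1 of 15 control and 1 of 13 vehicle peaks were, in both lists the peak 377.03 kb upstream of the start. The median p65 folds in the window were 4.55 in the list labelled siTEAD4 and 7.53 in the control list, against 5.37 and 5.98 in the whole lists. For XMU-MP-1 the median was 8.23 and for vehicle 6.92, against 5.96 and 5.87 in the whole lists. TEAD peaks were also long here, with a median of 513.5 bp in the window, against 350 bp in the whole TEAD list. The p65 peaks of the vehicle list (402 against 297 bp) and the XMU-MP-1 list (415.5 against 334 bp) were longer here too. Control p65 peaks (308 against 301 bp) and those labelled siTEAD4 (273 against 281 bp) were close to their lists.

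**Figure D4:**
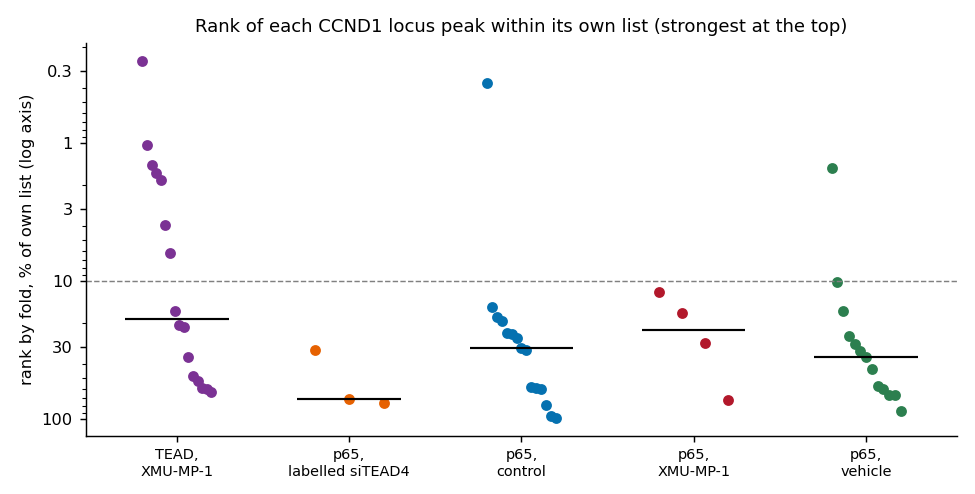
Rank of each peak by fold within its own list, as a percentage of that list (log axis, strongest at the top), with 1 point per peak, a bar at the median and a dashed line at the strongest 10%. Above that line are 7 TEAD peaks, 1 control and 1 vehicle p65 peak, and no peak of the list labelled siTEAD4 or of the XMU-MP-1 p65 list.

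The edges of the window were fixed by position. The nearest site outside it on the upstream side was called in the TEAD (fold 15.3), control (4.0) and vehicle (6.20) lists, 1.33 to 1.39 kb beyond the edge. No peak labelled siTEAD4 and no XMU-MP-1 p65 peak followed on that side for more than 2 Mb; the next ones on the downstream side were 550.03 kb from the CCND1 start in both lists, with folds of 11.1 and 8.28. Inside the window the outermost summits were those of the strong TEAD site described first and of the weakest control peak.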

How the data were processed

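ChIP-seq libraries of 786-O cells were analysed from 5 peak lists, 1 per immunoprecipitate. The 4 input libraries of the series have no list used here. Per the submitters' processing notes, fastp, Bowtie2 2.4.5 and MACS2 were used with hg19; the sources used here do not give the MACS2 settings or the input of each list. The authors deposited, per peak, a fold (a ratio that fits the summit pileup plus 1 over the local background plus 1), a −log10 p-value, a −log10 q-value, a summit position and a score, which was not used. The lists give no read totals. Fragment pileups and local backgrounds were solved from the deposited fold and −log10 p-value. The pileups of all 51 members came out as whole multiples, to within 0.001, of 1 fragment in the TEAD, vehicle and siTEAD4-labelled lists, of 0.587 in the control list and of 0.783 in the XMU-MP-1 p65 list. Fragment numbers are given before this scaling. The step of each list was itself fitted to give whole numbers. Where a peak had more than 1 solution, the one nearest to a whole multiple was taken. The closeness to whole multiples is therefore partly built in.

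Overlap meant at least 1 bp. Intervals are exact binomial (Clopper-Pearson, 95%) and cover the counting of peaks only. Python 3.11.15, numpy 2.4.6, pandas 2.3.3 and scipy 1.17.1 were used, and overlaps and pileups were tested on simulated data. The locus, its members and the comparisons were chosen with earlier results of these data known. Named with their folds were sites in 3 or more lists or with a treated p65 peak. So were the peaks of highest fold in each list and the sites nearest the CCND1 start. Other sites were added after their values were seen. Fragments, backgrounds and ranks are given for part of the named peaks only. RefSeq (GRCh38.p14) was used for gene order only. Other cyclin pathway genes, motifs and sequences at the peaks were not analysed here.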

Additional observations from a re-analysis of the deposited data

How the results depend on the processing

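Of 40 recomputed values for 7 results, 39 stayed within the 95% interval of the reported share, or within 1.5 times the reported number of sites. The exception was the number of sites at the locus, 24 as reported and 15 when only peaks with a −log10 q of at least 10 were used, a setting that removes weak peaks. With few peaks the intervals are wide: at the limit of 10, 1 of 9 control peaks (11.1%) had a peak labelled siTEAD4, against 20% as reported. Leaving out the list labelled siTEAD4, a choice made after seeing the data, could not change the 24 sites or the 4 with a treated p65 peak, because its 3 peaks lie at sites that the XMU-MP-1 list also holds. The alternatives were −log10 q limits of 5 and 10, 50% of the shorter peak covered, summits within 200 bp, a window wider by 50 kb on each side, upstream peaks alone, summits within 500 bp for the sites, and the vehicle list as reference. No paired analysis was possible because there is a single library per condition. The treated lists hold far fewer peaks in all, so a site without a treated peak may still hold p65 below the calling threshold.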
